A study of Mus musculus with 16 samples.

Results

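Fatty acid uptake and oxidation genes were followed through neonatal mouse ventricles with and without *Lrrc10*, after sham surgery and after myocardial infarction (MI). The set holds 39 genes, chosen by name for their step in the pathway, out of 51912 genes in the expression table. The list was drawn up with earlier results of these data known, so its counts of called genes are descriptive. All 39 were matched to the table, and all 39 were among the 20159 genes that passed the filter on low counts (at least 10 counts over the libraries of every group). By step, 5 of them act in uptake, 5 in activation, 2 as thioesterases, 4 in the carnitine shuttle, 3 in malonyl-CoA turnover, 15 in beta-oxidation, 3 in electron transfer and 2 in lipolysis. Total RNA was sequenced from ventricles, with 4 libraries in each of 4 groups. The methods do not say whether tissue above and below the ligature of infarcted hearts was included. The groups were wild type sham (WT SH), *Lrrc10*-/- sham (KO SH), wild type MI (WT MI) and *Lrrc10*-/- MI (KO MI). The mice were operated on at postnatal day 1, and ventricles were taken 7 days later. The knockout was whole-body and on a C57BL/6 background, and the WT mice were C57BL/6J from Jackson Laboratories. The methods do not describe WT and KO mice as littermates. Loss of *Lrrc10* and other differences between the lines therefore cannot be told apart in the genotype comparisons. The study asked how the loss of LRRC10, a cardiomyocyte protein, alters the response of the newborn heart to injury.

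The heart takes up long-chain fatty acids that lipoprotein lipase frees from circulating triglyceride, and binds, activates and carries them into mitochondria as carnitine esters. Beta-oxidation then shortens each acyl-CoA by repeated rounds of dehydrogenation, hydration, dehydrogenation and thiolysis, and the electrons pass to the respiratory chain. In the days after birth the mouse heart moves from glucose and lactate to fatty acids as its main fuel, and in the same window its cardiomyocytes leave the cell cycle.

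Total counts per library ranged from 33783874 to 57470159. *Lrrc10* had 0 counts in the 8 KO libraries and between 1075 and 1850 counts in the 8 WT libraries. Methods and labels describe mice of matched sex, yet *Xist*, the transcript of the inactive X, was above 100 CPM (counts scaled to the size of the library) in 2 of 4 libraries of KO SH, WT MI and KO MI and in 0 of 4 of WT SH. Any comparison with WT SH therefore also differs in the share of such libraries. Skeletal muscle markers summed over 8 genes reached 76.9 CPM for KO MI 2 and 88.1 CPM for KO MI 7, against 6.38 to 16.6 CPM in the other 14 libraries. The 8 cardiomyocyte markers were detected in every library and summed to between 25579 and 38350 CPM. The highest of these sums was WT SH 1, while KO MI (25579 to 27918 CPM) and WT MI (26094 to 27881 CPM) overlapped. In RNA of ventricle tissue, fewer cells of a type and less RNA per cell cannot be told apart. CPM values below use library sizes scaled by TMM (trimmed mean of M values), and libraries are named by group and number and listed in the order of their numbers (1, 2, 3 and 4, and for KO MI 1, 2, 3 and 7).

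Levels of the 39 genes, set per kb of the canonical transcript so that genes can be compared, differed from one another far more than any of them differed between groups. Averaged over the 16 libraries, *Fabp3*, the fatty acid binding protein of heart and skeletal muscle, was at 1330 CPM per kb. Next in order were *Acadl* (257 CPM per kb), *Hadha* (174), *Lpl* (165), *Etfb* (155) and *Cd36* (133). At the low end stood *Acad10* (0.432 CPM per kb) and *Acsl6* (0.0521). *Cpt1b*, the muscle carnitine palmitoyltransferase, was at 46.4 CPM per kb against 9.96 for the liver form *Cpt1a*. *Acacb*, which makes the malonyl-CoA that inhibits this step at mitochondria, was at 16.6 CPM per kb against 2.24 for the lipogenic form *Acaca*. Among the acyl-CoA synthetases *Acsl1* was at 61.9 CPM per kb, and *Acsl4*, *Acsl3* and *Acsl5* were at 4.47, 3.98 and 2.45.

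**Figure D1:**
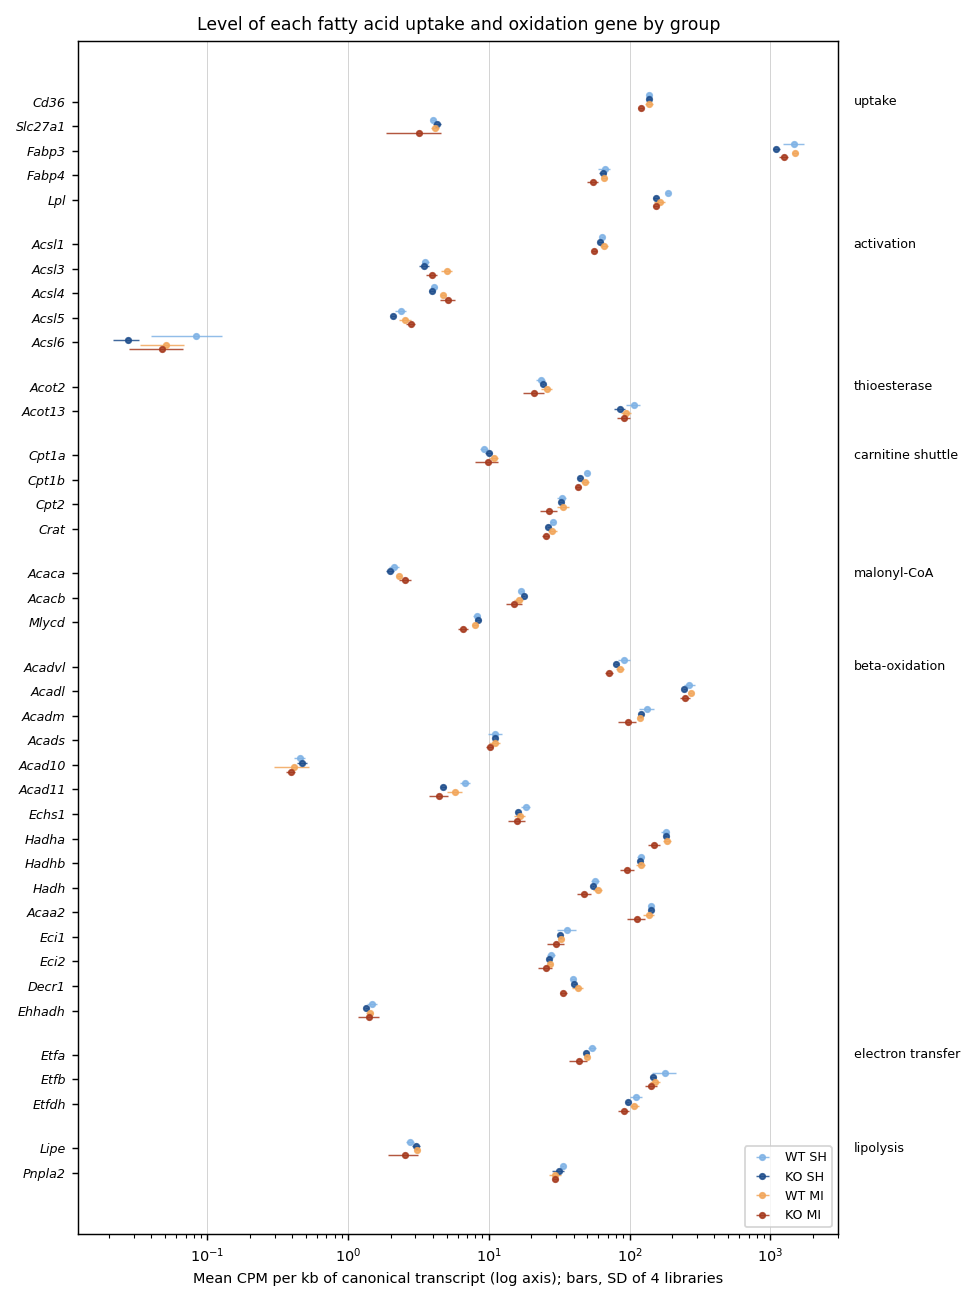
Mean level of each of the 39 genes in the 4 groups, in CPM per kb of canonical transcript on a log axis; points are group means of 4 libraries, bars are SD, and genes are ordered by step. Over all libraries the genes run from *Fabp3* at 1330 to *Acsl6* at 0.0521 CPM per kb, and the 4 points of a gene lie close together beside that range.

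The promoters of these genes were read from the GRCm39 genome as the 250 bases upstream of each canonical start. The hexamer AGGTCA, the site that nuclear receptors such as PPARs and estrogen-related receptors bind, was searched on both strands. It was present in 8 of the 39 windows (20.5%), against 13.1% of 21770 protein-coding genes. Those 8 were *Fabp4*, *Cpt1a*, *Cpt1b*, *Acacb*, *Mlycd*, *Acadvl*, *Echs1* and *Hadha*. Of the longer motifs, both of which contain the hexamer, its direct repeat spaced by 1 base (DR1, the PPAR element) was in 0.0367% of all windows and TNAAGGTCA, the element of estrogen-related receptors, in 1.09%, and neither was in a window of the 39. The E box CACGTG was in 7.69% of the 39 windows (*Cpt1b*, *Acaca* and *Etfa*) against 6.26% of all. A match describes these letters only. Shown here, 5′ to 3′ on the strand of the gene with the hexamer in capitals (TGACCT is its reverse complement), are the windows of a gene of the carnitine shuttle, of one of malonyl-CoA turnover and of one of beta-oxidation, without bases that fall in an annotated exon. The last line is the exon-free stretch between the divergent starts of *Hadha* and *Hadhb*, on the plus strand, which holds none of these motifs.
Cpt1b, chr15:89310240-89310475, minus strand: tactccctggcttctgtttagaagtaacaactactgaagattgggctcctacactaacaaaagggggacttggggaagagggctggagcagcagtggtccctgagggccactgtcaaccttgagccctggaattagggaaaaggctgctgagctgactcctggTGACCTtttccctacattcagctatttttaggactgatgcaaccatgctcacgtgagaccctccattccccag
Mlycd, chr8:120121053-120121302, plus strand: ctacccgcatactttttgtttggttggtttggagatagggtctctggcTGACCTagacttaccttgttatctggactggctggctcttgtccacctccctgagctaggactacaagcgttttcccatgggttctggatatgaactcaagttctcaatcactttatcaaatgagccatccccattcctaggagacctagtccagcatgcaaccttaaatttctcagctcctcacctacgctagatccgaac
Acadvl, chr11:69906271-69906519, minus strand: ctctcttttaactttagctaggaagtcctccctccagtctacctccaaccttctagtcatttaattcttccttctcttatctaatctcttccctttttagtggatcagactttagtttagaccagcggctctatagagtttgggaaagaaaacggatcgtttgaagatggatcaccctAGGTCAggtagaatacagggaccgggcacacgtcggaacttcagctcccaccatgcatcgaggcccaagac
Hadha-Hadhb, chr5:30360188-30360235, plus strand: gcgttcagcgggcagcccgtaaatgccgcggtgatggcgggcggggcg

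A gene was called when its Benjamini-Hochberg adjusted p, over all 20159 genes and from edgeR's quasi-likelihood F-test on the 16 libraries, was under 0.1, and it was a differentially expressed gene (DEG) when its log2 fold change was also at least 0.5 in size. Without injury, in KO SH against WT SH, 7 of the 39 genes (17.9%) were lower and 0 were higher. Of all genes tested, 7.22% were lower and 5.11% higher in that comparison, and 2 of the 39 were DEGs, beside 5.01% of all genes. Post-MI, 13 of the 39 (33.3%) were lower in KO MI than WT MI and 0 higher, beside 2.04% lower and 1.03% higher of all genes, and 0 were DEGs beside 1.73%. None of those 13 reached the DEG fold, and their log2 fold changes ran from -0.37 to -0.20. Folds written below as a value ± a value are log2 fold changes with their standard errors from this fit. The other comparisons followed injury within a genotype. In WT MI against WT SH, 1 of the 39 was higher and 1 lower, beside 3.11% and 2.21% of all genes, with 1 DEG beside 2.78%. Of the 39, 3 (7.69%) were higher and 12 (30.8%) lower in KO MI against KO SH, beside 10.2% and 7.32% of all genes, with 0 DEGs beside 7.42%. The genotype and injury comparisons post-MI share the KO MI libraries, so that their counts are not separate evidence. Likewise, KO SH against WT SH and WT MI against WT SH share the WT SH libraries.

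The median log2 fold change of the 39 genes was -0.05 in KO SH against WT SH, -0.20 in KO MI against WT MI, -0.02 in WT MI against WT SH and -0.11 in KO MI against KO SH. Over all genes tested these medians were 0.0053, 0.0077, -0.0043 and -0.010. Post-MI, 36 of the 39 fitted values of KO MI against WT MI were below 0 (92.3%), against 47.9% of all genes. The exceptions were *Acsl4*, *Acsl5* and *Acaca*, of which none was called. Summed over the 39 genes, the level was from 5792 to 6332 CPM in KO MI and from 6771 to 7292 CPM in WT MI, without overlap. In KO SH it ran from 6233 to 6548 CPM and in WT SH from 6551 to 7685 CPM, and these groups did not overlap either, though the highest KO SH and the lowest WT SH library were close. As a share of all counts, with no TMM scaling, the 39 genes held 0.624% to 0.663% in KO MI against 0.697% to 0.739% in WT MI, and 0.608% to 0.626% in KO SH against 0.641% to 0.696% in WT SH. On that scale the genotype order stayed, while the injury order differed. In CPM, WT MI lay within the range of WT SH and KO MI was lower than KO SH but for KO MI 1, whereas by share WT MI lay just above WT SH and KO MI above KO SH but for KO MI 3. The TMM factors were 0.957 to 0.976 in KO SH and 0.997 to 1.108 in KO MI. Single genes were not set on the share scale, so their injury folds and group orders below hold for TMM-scaled CPM only. The mitochondrial ribosomal RNA *mt-Rnr2* took 35.7% to 36.3% of counts in WT SH, 37.1% to 37.6% in KO SH, 34.05% to 34.8% in WT MI and 29.8% (KO MI 2) to 35.0% in KO MI. With the mitochondrially encoded genes left out of the TMM-scaled fit, the called genes given above numbered 13 in KO MI against WT MI, 2 in WT MI against WT SH and 15 in KO MI against KO SH. Of all genes, 3.05%, 5.35% and 17.6% were called there. That omission moved the median of all genes by at most 0.0021 on the log2 scale. It therefore cannot bear on the difference between CPM and share of counts, and a share without mitochondrial counts was not computed.

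**Figure D2:**
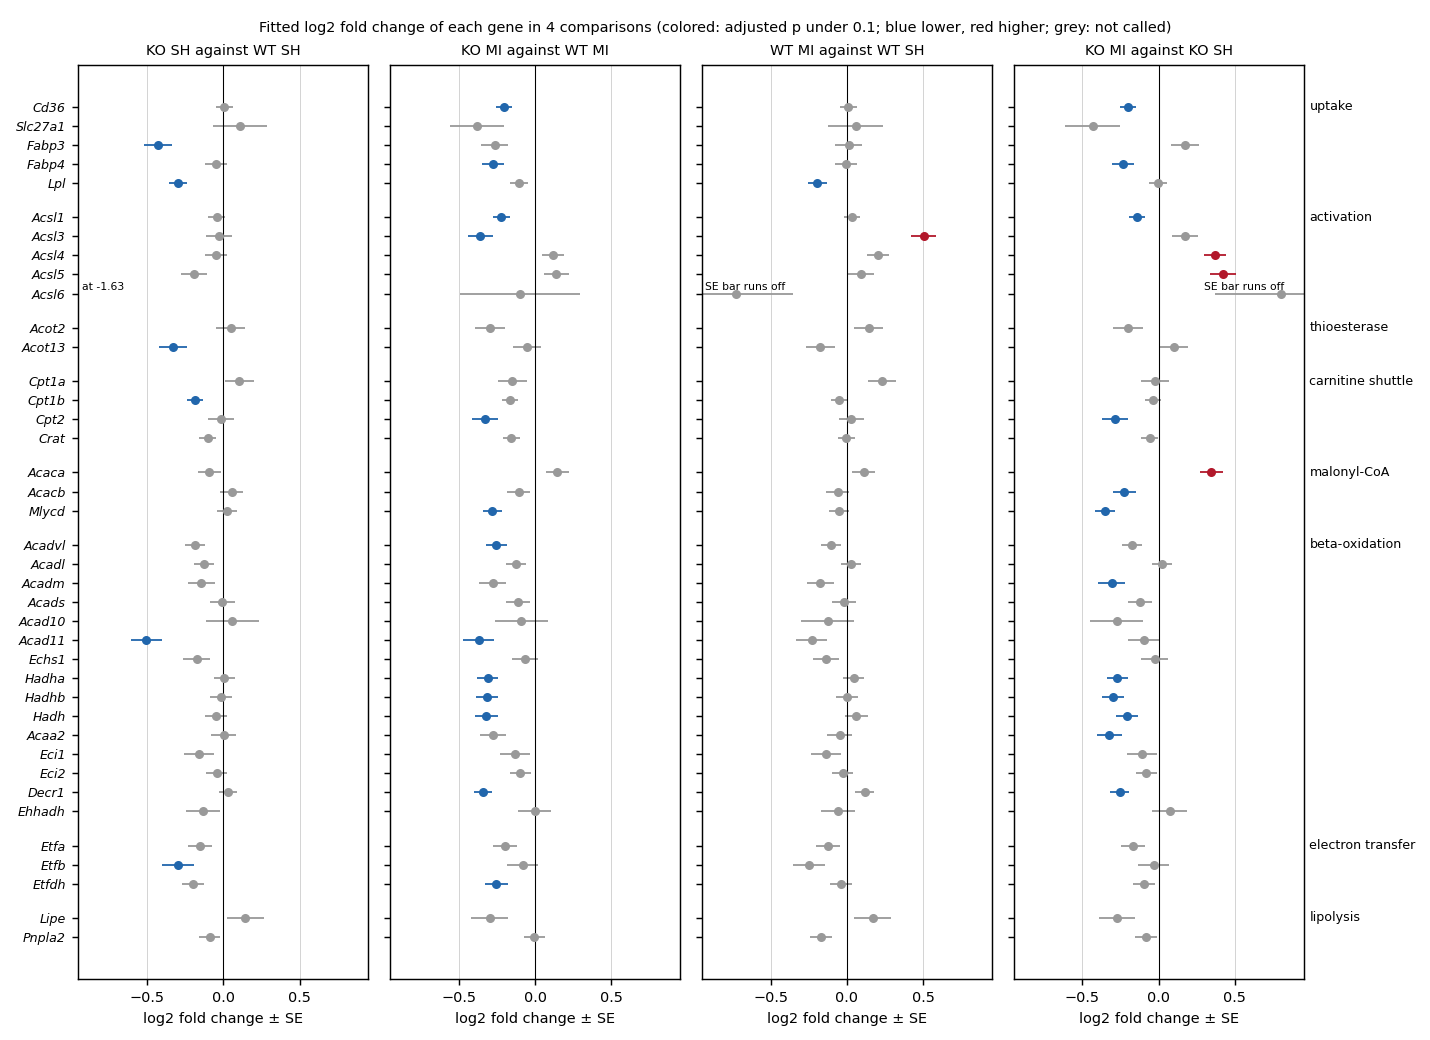
Fitted log2 fold change ± SE of each gene in 4 comparisons, 4 libraries per group, ordered by step; blue points are called lower, red points higher and grey points not called. *Acsl6* lies off the scale at -1.63 in the first panel, and in the panel of KO MI against WT MI all 13 called genes are blue.

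The count post-MI depended on single libraries and on the fit. Leaving out 1 library at a time gave between 2 and 18 called genes in KO MI against WT MI. It fell to 2 without WT MI 4, 6 without WT MI 1, 7 without WT MI 3 or without KO MI 2, and 8 without KO MI 3, where 1.79%, 1.74%, 1.89%, 2.21% and 2.30% of all genes were called. The 18 came without KO MI 7, where 6.16% of all genes were called. A fit on the 8 libraries of the comparison alone left 1 call (*Decr1*), beside 1.23% of all genes, and only libraries with low *Xist*, 2 against 2, left 0, beside 0.846%. Without both KO MI 2 and KO MI 7 it was 10, beside 2.85%, and the median stayed between -0.24 and -0.17 in all 8 omissions. In KO SH against WT SH the count ran from 4 to 9, with 4 without WT SH 1 or without KO SH 4, where 7.08% and 7.59% of all genes were called. It was 2 (*Lpl* and *Acad11*) among low *Xist* libraries and 6 with *Xist* as a term of the fit, beside 3.82% and 12.2% of all genes. Between KO MI and KO SH the count ran from 10 without KO MI 2 to 18 without KO MI 7, beside 9.55% and 28.0% of all genes, and was 15 without both, beside 16.9%.

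Markers of other cells moved in some of these comparisons. In KO SH against WT SH, 3 of 8 cardiomyocyte markers, 3 of 8 macrophage markers and 3 of 8 fibroblast markers were called lower, with fibroblast sums of 1048 to 1175 CPM in KO SH and 1186 to 1402 CPM in WT SH. In KO MI against WT MI, 0 of 8 cardiomyocyte, 0 of 8 endothelial and 0 of 8 macrophage markers were called, 1 of 8 fibroblast markers was lower, and 4 of 7 tested skeletal muscle and 2 of 7 erythroid markers were higher. The erythroid marker *Hbb-bt* was lower there without overlap, at a log2 fold change of -1.19, and was not called. In KO MI against KO SH, 7 of 8 macrophage, 6 of 7 skeletal muscle and 7 of 7 erythroid markers were higher and 4 of 8 endothelial markers lower. In the same comparison 2 of 8 fibroblast markers (*Postn* and *Col1a1*) were higher, with sums of 1504 to 1676 CPM in KO MI, above all of KO SH, and of the cardiomyocyte markers 2 were higher and 2 lower. WT MI against WT SH had 3 of 8 cardiomyocyte and 1 of 8 endothelial markers lower, and 2 of 8 fibroblast and 1 of 8 macrophage markers higher. The sums of WT MI did not overlap those of WT SH for macrophages (72.0 to 98.1 against 55.5 to 64.4 CPM), fibroblasts (1468 to 1702 against 1186 to 1402 CPM) or endothelium (785 to 884 against 943 to 966 CPM), and these markers moved beside *Acsl3* and *Lpl*. Erythroid sums were 355 to 1146 CPM in KO MI and 417 to 498 CPM in KO SH. The part of these markers in the results on the 39 genes was not tested, beyond the omission of KO MI 2 and KO MI 7 given above. Where 2 groups of 4 libraries do not overlap for a gene, the exact permutation test (two-sided) gives p = 0.0286, the smallest it can give.

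*Fabp3*, which buffers fatty acids in the cytosol of cardiomyocytes, and *Lpl*, the lipase that frees them from lipoproteins, were the uptake genes lower in KO without injury. In WT SH the CPM of *Fabp3* was 1478, 1129.9, 1267 and 1006, in KO SH 926, 857, 971 and 875, in WT MI 1182, 1308, 1241 and 1185 and in KO MI 1038, 1117, 967 and 966. Every KO SH library was below every WT SH library. The log2 fold change of *Fabp3* was -0.43 ± 0.09 in KO SH against WT SH, with adjusted p = 0.00853 by edgeR's quasi-likelihood test. It was -0.27 ± 0.09 in KO MI against WT MI, where the groups again did not overlap but adjusted p = 0.177 missed the threshold. The libraries of WT SH had 792, 767, 792 and 746 CPM of *Lpl*, those of KO SH 633, 651, 650.4 and 589, those of WT MI 664, 699.8, 603 and 744 and those of KO MI 653, 614, 608 and 642. WT SH stood above the other 3 groups, which overlapped one another. *Lpl* had a log2 fold change of -0.30 ± 0.06 in KO SH against WT SH (adjusted p = 0.00673). It was also lower in WT MI against WT SH, by 0.19 on the log2 scale (adjusted p = 0.0978), a call that was lost in 6 of 8 omissions of 1 library (WT SH 1, 2 or 3, or WT MI 1, 2 or 3), with adjusted p values up to 0.254. Both calls use the same WT SH libraries and are not separate evidence. The endothelial marker sum (8 genes) was 943 to 966 CPM in WT SH and 867 to 912 CPM in KO SH, 0 of 8 called, and the cardiomyocyte sum was 27832 to 38350 and 27624 to 28504 CPM, 3 of 8 called lower. The cardiomyocyte markers *Pln* and *Myh7* were higher in KO SH and not called. The part of both marker lists in these differences was not tested.

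The uptake genes that were lower in KO post-MI were *Cd36*, the fatty acid translocase of the plasma membrane, and *Fabp4*, which in heart is chiefly made by capillary endothelium. For *Cd36* the CPM values were 482, 481, 497 and 460.5 in WT SH, 483, 498, 488 and 460.2 in KO SH, 474, 483, 447 and 529 in WT MI and 446, 411, 402 and 419.6 in KO MI. The 4 KO MI libraries were the lowest of the 16. *Cd36* differed by -0.20 ± 0.06 from WT MI (adjusted p = 0.0726) and by -0.20 ± 0.06 from KO SH (adjusted p = 0.0257), and the first of these calls was lost without WT MI 1, WT MI 2, WT MI 4, KO MI 2 or KO MI 3. CPM of *Fabp4* stood at 103, 88.6, 85.00 and 84.2 in WT SH, 82.5, 84.8, 92.2 and 90.1 in KO SH, 93.8, 86.04, 86.9 and 93.1 in WT MI and 84.4, 69.5, 71.4 and 71.9 in KO MI. KO MI 1 reached the lower edge of the sham groups but not of WT MI, and the other 3 KO MI libraries lay below all other groups. The log2 fold change of *Fabp4* was -0.28 ± 0.07 against WT MI (adjusted p = 0.0585, lost without WT MI 1, WT MI 3, WT MI 4, KO MI 2 or KO MI 3) and -0.23 ± 0.07 against KO SH (adjusted p = 0.0434, lost without KO SH 3, KO SH 4, KO MI 2 or KO MI 3). The sum of adipocyte markers, another source of *Fabp4*, did not exceed 11.9 CPM in any library, with 1 to 7 of its 8 genes at 0 counts, and 1 of the 8 passed the filter. The endothelial sum was 730 to 880 CPM in KO MI and 785 to 884 CPM in WT MI, with 0 of 8 genes called, and its part was not tested. *Slc27a1*, a fatty acid transport protein, was not called in any comparison; it spread from 10.49 to 27.3 CPM within KO MI and from 20.4 to 25.1 CPM elsewhere. The ratio of *Fabp3* to *Fabp4* CPM ran from 11.9 to 14.9 in WT SH, 9.72 to 11.2 in KO SH, 12.6 to 15.2 in WT MI and 12.3 to 16.1 in KO MI.

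Activation was split by isoform. *Acsl1*, which supplies most long-chain acyl-CoA for oxidation in heart, was lower in KO MI, while *Acsl4* and *Acsl5* were higher there than in KO SH. Sham hearts had 381, 364, 377 and 358 CPM of *Acsl1* in WT and 367, 371, 359.6 and 337 in KO, and infarcted hearts had 353, 366, 384 and 411 in WT and 332, 322, 308 and 335 in KO. No KO MI library reached a WT MI or KO SH library. *Acsl1* had a log2 fold change of -0.22 ± 0.05 against WT MI (adjusted p = 0.041, lost without WT MI 3, WT MI 4 or KO MI 3). It had a log2 fold change of -0.14 ± 0.05 against KO SH (adjusted p = 0.0926), and that call was lost without KO SH 1, 2 or 3 or KO MI 2 or 3. *Acsl4* was at 22.4, 20.6, 22.1 and 23.1 CPM in WT SH, at 21.6, 22.6, 20.3 and 20.8 in KO SH, at 25.9, 26.00, 24.4 and 25.5 in WT MI and at 25.3, 30.9, 29.8 and 24.3 in KO MI. *Acsl4* prefers arachidonate and other polyunsaturated acids. Its log2 fold change was 0.37 ± 0.07 in KO MI against KO SH (adjusted p = 0.00411) and 0.21 ± 0.07 in WT MI against WT SH (adjusted p = 0.141, not called). In WT SH the CPM of *Acsl5* was 11.6, 9.49, 10.2 and 10.1, in KO SH 9.197, 9.45, 8.76 and 8.89, in WT MI 11.9, 10.9, 9.51 and 11.9 and in KO MI 11.5, 13.2, 12.7 and 11.2. *Acsl5* had a log2 fold change of 0.42 ± 0.08 in KO MI against KO SH (adjusted p = 0.00488), kept in all 8 omissions as was *Acsl4*. Macrophage markers, which summed to 47.9 to 55.9 CPM in KO SH and 60.6 to 126 CPM in KO MI (7 of 8 called higher), moved with these genes, and their part was not tested.

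*Acsl3*, an acyl-CoA synthetase of the endoplasmic reticulum and of lipid droplets (chr1:78635537-78685461, plus strand), was the DEG that injury raised in WT. The libraries of WT SH had 13.8, 13.5, 14.2 and 12.5 CPM of *Acsl3*, those of KO SH 13.01, 13.9, 11.8 and 14.4, those of WT MI 21.1, 17.5, 17.7 and 20.3 and those of KO MI 13.5, 15.4, 14.3 and 16.5. WT MI stood above the other 3 groups without overlap. The log2 fold change of *Acsl3* was 0.50 ± 0.08 in WT MI against WT SH (adjusted p = 0.00361), a gain of 41.7%, and the call was kept in all 8 omissions, with folds from 0.45 to 0.54 that fell short of the DEG size without WT SH 4, WT MI 1 or WT MI 4. The KO response to MI was 0.17 ± 0.08 (adjusted p = 0.207, not called), and in KO MI against WT MI -0.36 ± 0.08 (adjusted p = 0.0309, lost without WT MI 1 or WT MI 4). The difference of these injury effects, the interaction, was -0.33 ± 0.12 (adjusted p = 0.243) and was not called. *Acsl6*, known mainly from brain and blood cells, was barely expressed. For *Acsl6* the CPM values were 0.865, 0.481, 0.343 and 0.2902 in WT SH, 0.113, 0.162, 0.188 and 0.184 in KO SH, 0.231, 0.452, 0.225 and 0.304 in WT MI and 0.407, 0.158, 0.347 and 0.214 in KO MI. The value of WT SH 1 was the highest, and *Acsl6* was a DEG in KO SH against WT SH at a log2 fold change of -1.63 ± 0.41 (adjusted p = 0.023), lost without WT SH 1, where adjusted p was 0.113. The lowest count of any of the 39 genes in a library was 5, and the 3 counts taken as the floor are worth 0.0577 to 0.0858 CPM at these depths.

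Thioesterases cleave acyl-CoA back to free acid. CPM of *Acot13* stood at 90.5, 75.3, 80.1 and 68.2 in WT SH, 64.1, 57.2, 69.9 and 58.8 in KO SH, 63.3, 68.8, 76.2 and 70.3 in WT MI and 71.99, 74.3, 63.6 and 58.03 in KO MI. *Acot13* was at a log2 fold change of -0.33 ± 0.09 in KO SH against WT SH (adjusted p = 0.038), though KO SH 3 lay above WT SH 4. That call was lost without WT SH 1, KO SH 2 or KO SH 4. *Acot2*, the mitochondrial form, was between 42.5 and 70.3 CPM and was not called in any comparison. Its reads can be shared with the near-identical *Acot1*, which makes its count uncertain.

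Of the carnitine shuttle, the muscle isoform of the entry step was lower in KO SH and the inner-membrane enzyme was lower in KO MI. Sham hearts had 154, 153, 157 and 148 CPM of *Cpt1b* in WT and 133, 138, 136 and 132 in KO, and infarcted hearts had 142, 138, 149 and 161 in WT and 132, 131, 124 and 139 in KO. WT SH lay above all KO SH libraries, by at least the gap from 148 to 138 CPM. *Cpt1b* had a log2 fold change of -0.18 ± 0.05 in KO SH against WT SH (adjusted p = 0.0419, lost without WT SH 3, KO SH 1 or KO SH 4) and -0.17 ± 0.05 in KO MI against WT MI (adjusted p = 0.141, not called). *Cpt1a* was at 63.2, 65.7, 58.1 and 56.95 CPM in WT SH, at 70.6, 61.4, 65.7 and 64.6 in KO SH, at 68.03, 71.04, 79.1 and 68.05 in WT MI and at 57.8, 62.8, 56.2 and 81.4 in KO MI. *Cpt1a*, the isoform of liver and of the fetal heart, was not called. The *Cpt1b* to *Cpt1a* ratio of CPM was 2.33 to 2.71 in WT SH, 1.89 to 2.25 in KO SH, 1.88 to 2.37 in WT MI and 1.71 to 2.29 in KO MI. WT SH did not overlap KO SH or KO MI, and of WT MI only WT MI 4 (2.37) reached its range. In WT SH the CPM of *Cpt2* was 76.8, 74.5, 85.8 and 75.5, in KO SH 80.7, 77.5, 74.98 and 76.4, in WT MI 78.4, 72.2, 77.7 and 90.8 and in KO MI 73.4, 60.9, 66.4 and 53.2. *Cpt2*, which restores acyl-CoA inside mitochondria, had a log2 fold change of -0.33 ± 0.08 against WT MI (adjusted p = 0.0535), with KO MI 1 above WT MI 2 and the call lost without WT MI 1, 3 or 4 or KO MI 2. Against KO SH it had a log2 fold change of -0.28 ± 0.08 (adjusted p = 0.036), kept in all 8 omissions. *Crat*, carnitine acetyltransferase, was between 97.0 and 126 CPM and was not called.

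Malonyl-CoA, the inhibitor of CPT1, is made by *Acaca* and *Acacb* and removed by *Mlycd*. Between KO MI and KO SH all 3 were called, *Acaca* higher and the other two lower. The libraries of WT SH had 26.9, 25.2, 26.1 and 23.6 CPM of *Mlycd*, those of KO SH 27.01, 25.1, 24.8 and 26.6, those of WT MI 25.04, 22.8, 25.03 and 25.4 and those of KO MI 20.6, 18.4, 19.7 and 22.2. The KO MI libraries were the lowest of the 16. The log2 fold change of *Mlycd*, whose promoter is printed above, was -0.28 ± 0.06 against WT MI (adjusted p = 0.0305, lost without WT MI 4 at adjusted p 0.103) and -0.35 ± 0.06 against KO SH (adjusted p = 0.00283, kept in all 8 omissions). For *Acaca* the CPM values were 20.3, 21.4, 17.9 and 21.2 in WT SH, 19.9, 20.2, 17.3 and 18.5 in KO SH, 21.4, 22.6, 20.96 and 22.4 in WT MI and 22.1, 27.1, 24.7 and 22.4 in KO MI. KO MI lay above KO SH without overlap, and WT MI lay above KO SH and overlapped KO MI. *Acaca* had a log2 fold change of 0.35 ± 0.08 in KO MI against KO SH (adjusted p = 0.00806, kept in all 8 omissions). CPM of *Acacb* stood at 158, 153, 159 and 149 in WT SH, 165, 161, 161 and 156 in KO SH, 146, 133, 158 and 155 in WT MI and 141, 119, 129 and 162 in KO MI. *Acacb* had a log2 fold change of -0.23 ± 0.08 (adjusted p = 0.0607) in the same comparison, although KO MI 7 was as high as KO SH, and the call was lost without KO SH 1, 2 or 3 or KO MI 2 or 3.

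Beta-oxidation, the longest of the steps, had 6 of 15 genes (40.0%) lower in KO MI against WT MI, the same share as uptake and activation (2 of 5 each), beside 2.04% of all genes. In KO MI against KO SH 6 of 15 were again lower, as were 2 of 5 uptake and 2 of 3 malonyl-CoA genes, beside 7.32% of all genes. The median log2 fold changes of the 15 genes were -0.25 and -0.17 in these comparisons. *Hadha* and *Hadhb* encode the subunits of the trifunctional protein, which hydrates, dehydrogenates and cleaves long-chain acyl-CoA at the inner membrane. Their starts lie 65 bases apart on chromosome 5 in opposite directions, across the stretch printed above. Sham hearts had 772, 692, 764 and 677 CPM of *Hadha* in WT and 745, 716, 747 and 713 in KO, and infarcted hearts had 717, 701, 778 and 802 in WT and 658, 542, 570.3 and 646 in KO. All KO MI libraries were below all 12 others. *Hadhb* was at 235, 231, 262 and 246 CPM in WT SH, at 243, 243, 248 and 232 in KO SH, at 244, 222, 247 and 263 in WT MI and at 226, 183, 201 and 174 in KO MI. KO MI 1 lay just above WT MI 2, and otherwise KO MI was below the other groups. Against WT MI, KO MI had a log2 fold change of -0.31 ± 0.07 for *Hadha* (adjusted p = 0.0229, kept in all 8 omissions) and -0.32 ± 0.07 for *Hadhb* (adjusted p = 0.0309, lost without WT MI 4). Against KO SH it had -0.27 ± 0.07 for *Hadha* (adjusted p = 0.0168) and -0.30 ± 0.07 for *Hadhb* (adjusted p = 0.0143), both kept in all 8 omissions.

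*Decr1*, the 2,4-dienoyl-CoA reductase needed for polyunsaturated acids (chr4:15912432-15945649, minus strand), had the lowest adjusted p of the 39 genes in KO MI against WT MI. In WT SH the CPM of *Decr1* was 121, 113, 121 and 114, in KO SH 124, 119, 119 and 117, in WT MI 121, 119, 122.7 and 144 and in KO MI 109, 95.8, 96.3 and 99.8. The 4 KO MI libraries were the lowest of the 16, and WT MI 4 was the highest. *Decr1* was at a log2 fold change of -0.34 ± 0.06 against WT MI (adjusted p = 0.00569) and -0.26 ± 0.06 against KO SH (adjusted p = 0.0129), both kept in all 8 omissions, while KO SH against WT SH gave 0.03 ± 0.06 (adjusted p = 0.82, not called). The libraries of WT SH had 249.9, 243, 252 and 241 CPM of *Acaa2*, those of KO SH 247, 248, 252 and 239, those of WT MI 218, 224, 255 and 258 and those of KO MI 218, 158, 195 and 218. *Acaa2*, the thiolase of the last step, had a log2 fold change of -0.32 ± 0.08 in KO MI against KO SH (adjusted p = 0.0175, kept in all 8 omissions) and -0.28 ± 0.08 against WT MI (adjusted p = 0.107, not called). KO MI 2 was the lowest library of *Acaa2*.

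*Acad11*, an acyl-CoA dehydrogenase that acts on long and very long chains (chr9:103940576-104004924, plus strand), was the gene of the set called lower in KO both without injury and post-MI. For *Acad11* the CPM values were 27.8, 25.2, 24.9 and 22.9 in WT SH, 18.9, 16.99, 17.5 and 17.6 in KO SH, 21.00, 17.8, 23.1 and 23.98 in WT MI and 19.6, 15.2, 17.7 and 13.9 in KO MI. KO SH lay below WT SH without overlap, and KO MI 1 lay within the range of WT MI. The log2 fold change was -0.50 ± 0.10 in KO SH against WT SH (adjusted p = 0.00676), a call kept in all 8 omissions with folds from -0.55 to -0.45. The number of DEGs in that comparison, *Acad11* and *Acsl6*, ran from 0 to 3 over the omissions, with 0 without WT SH 1 and 1 without KO SH 2. Of all genes, 3.35% to 6.15% were DEGs over these omissions, 3.35% without WT SH 1 and 3.95% without KO SH 2. Post-MI, *Acad11* had a log2 fold change of -0.37 ± 0.10 in KO MI against WT MI (adjusted p = 0.0823), lost without WT MI 1, 3 or 4 or KO MI 2, 3 or 7. The comparisons have no library in common.

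**Figure D3:**
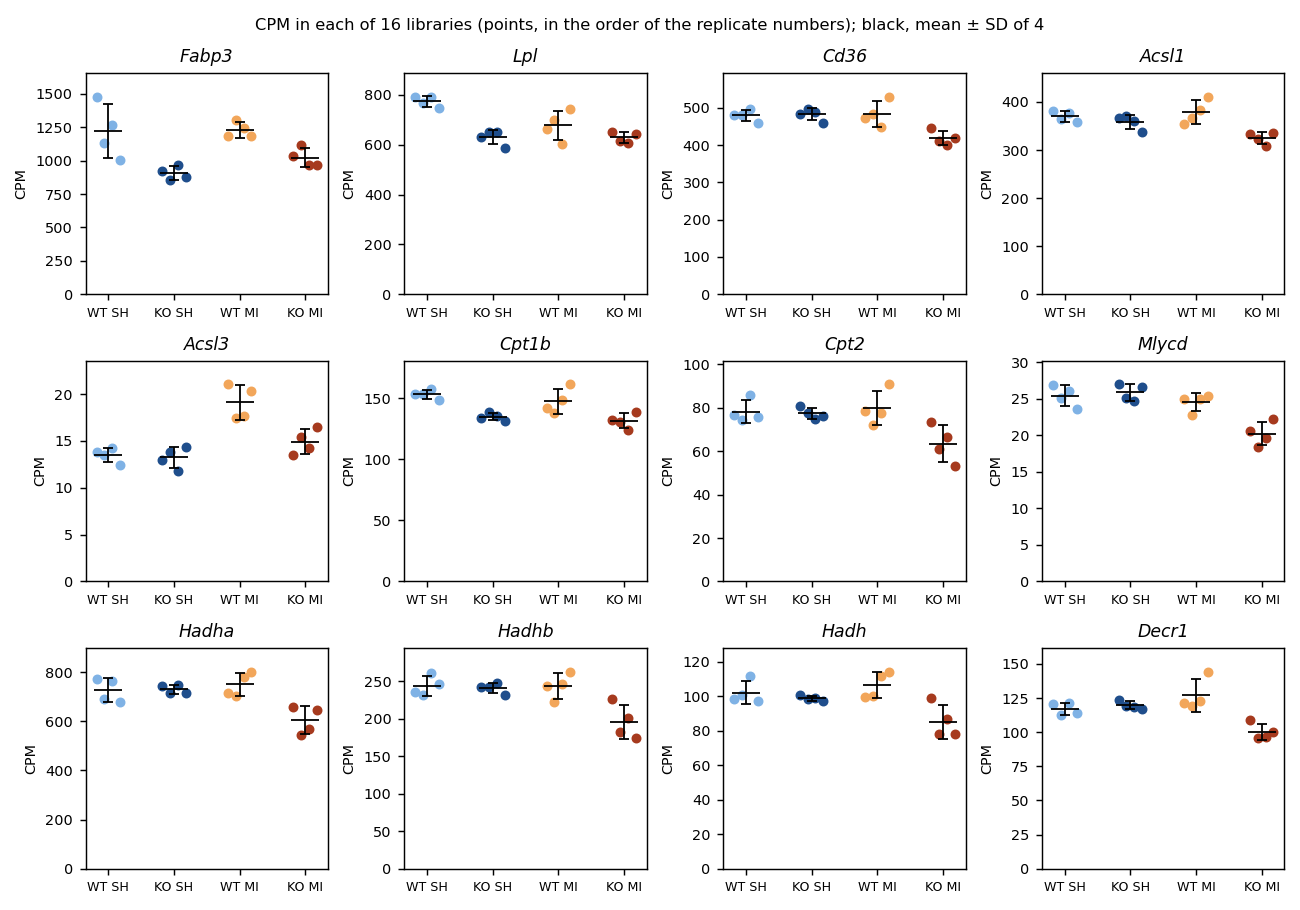
CPM of 12 of the genes in each library, one panel per gene with the axis from 0; points are libraries in the order of their numbers and black marks are the mean ± SD of 4. *Hadha*, *Decr1*, *Mlycd* and *Cd36* are lowest in the 4 KO MI libraries, *Lpl* is highest in WT SH and *Acsl3* in WT MI.

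The other beta-oxidation genes called were *Hadh*, *Acadvl* and *Acadm*, the short-chain hydroxyacyl-CoA dehydrogenase and the very-long and medium-chain acyl-CoA dehydrogenases. *Hadh* was 77.9 to 98.9 CPM in KO MI and 99.7 to 114 CPM in WT MI, with a log2 fold change of -0.32 ± 0.07 (adjusted p = 0.0273, lost without WT MI 4 at adjusted p 0.107). Against KO SH (97.1 to 101 CPM) it had a log2 fold change of -0.21 ± 0.07 (adjusted p = 0.0686), a call lost in 7 of 8 omissions, all but that of KO MI 1. *Acadvl*, whose promoter is printed above, was 149 to 170.3 CPM in KO MI and 171 to 201 CPM in WT MI, at a log2 fold change of -0.25 ± 0.07 (adjusted p = 0.0628, lost without WT MI 1, 3 or 4 or KO MI 2). In KO SH against WT SH *Acadvl* was at -0.18 ± 0.07, without overlap (adjusted p = 0.104 by edgeR's test, not called). *Acadm* was 168 to 238 CPM in KO MI and 239.8 to 256 CPM in KO SH, at a log2 fold change of -0.31 ± 0.09 (adjusted p = 0.0327, lost without KO MI 2 at adjusted p 0.107). Not called in any comparison were *Acadl* (578 to 720 CPM over the 16 libraries), *Acads* (17.6 to 24.5), *Acad10* (1.01 to 1.957), *Echs1* (30.7 to 46.9), *Eci1* (28.8 to 49.9), *Eci2* (28.7 to 37.8) and *Ehhadh* (3.48 to 5.27), the last a peroxisomal enzyme.

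Electrons from the acyl-CoA dehydrogenases pass to electron transfer flavoprotein, made of *Etfa* and *Etfb*, and on to its dehydrogenase *Etfdh*. CPM of *Etfb* stood at 206, 145, 152 and 138 in WT SH, 129, 122.6, 136 and 134 in KO SH, 128, 134, 151 and 127 in WT MI and 125, 114, 128 and 143 in KO MI. WT SH 1 stood far above the other 15 libraries. *Etfb* had a log2 fold change of -0.30 ± 0.10 in KO SH against WT SH (adjusted p = 0.0851), and the call was lost in 6 of 8 omissions (WT SH 1 or 3, or any KO SH library), with -0.15 without WT SH 1. Sham hearts had 301, 259, 273 and 244 CPM of *Etfdh* in WT and 234, 234, 242 and 227 in KO, and infarcted hearts had 252, 245, 260.5 and 289 in WT and 248, 203, 219 and 207 in KO. KO MI 1 overlapped WT MI and the other KO MI libraries lay below it. *Etfdh* had a log2 fold change of -0.25 ± 0.07 in KO MI against WT MI (adjusted p = 0.0933), lost without WT MI 1, 3 or 4 or KO MI 2, 3 or 7. In KO SH against WT SH *Etfdh* was at -0.20 ± 0.07, without overlap (adjusted p = 0.106 by edgeR's test, not called). *Etfa* was between 65.5 and 102 CPM and not called. In lipolysis, *Pnpla2*, the first lipase of stored triglyceride, was between 52.4 and 73.9 CPM, and *Lipe*, the lipase of the next step, between 7.71 and 12.98 CPM, and neither was called.

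The difference between the genotype effect post-MI and that without injury was tested gene by gene as an interaction. By edgeR's quasi-likelihood test 0 of the 39 were called, beside 0.0248% of all genes (5 genes), and 17 of the 39 had an unadjusted p under 0.05, against 2745 of 20159 genes. DESeq2 called 3 of the 39, beside 4.49% of the genes to which it gave an adjusted p. The lowest adjusted p was that of *Decr1*, with a log2 value of -0.37 ± 0.09 (adjusted p = 0.146), followed by *Mlycd* at a log2 fold change of -0.30 ± 0.09 (adjusted p = 0.197) and *Hadha* at a log2 fold change of -0.32 ± 0.10 (adjusted p = 0.202). Without KO MI 7 the count was 10, with 2 past the DEG fold, and calls over all genes rose as well, to 9.08%, with 4.20% DEGs. Without KO MI 2 and KO MI 7 it was 8, with 3 past the DEG fold, beside 4.11% and 1.89% of all genes. Of the 7 genes called in KO SH against WT SH, *Acad11* was also called in KO MI against WT MI, where 33.3% of the 39 were called. Calls shared by these comparisons were not counted over all genes. By edgeR's test the genotype effect of no gene of the set was shown to differ between sham and MI.

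**Figure D4:**
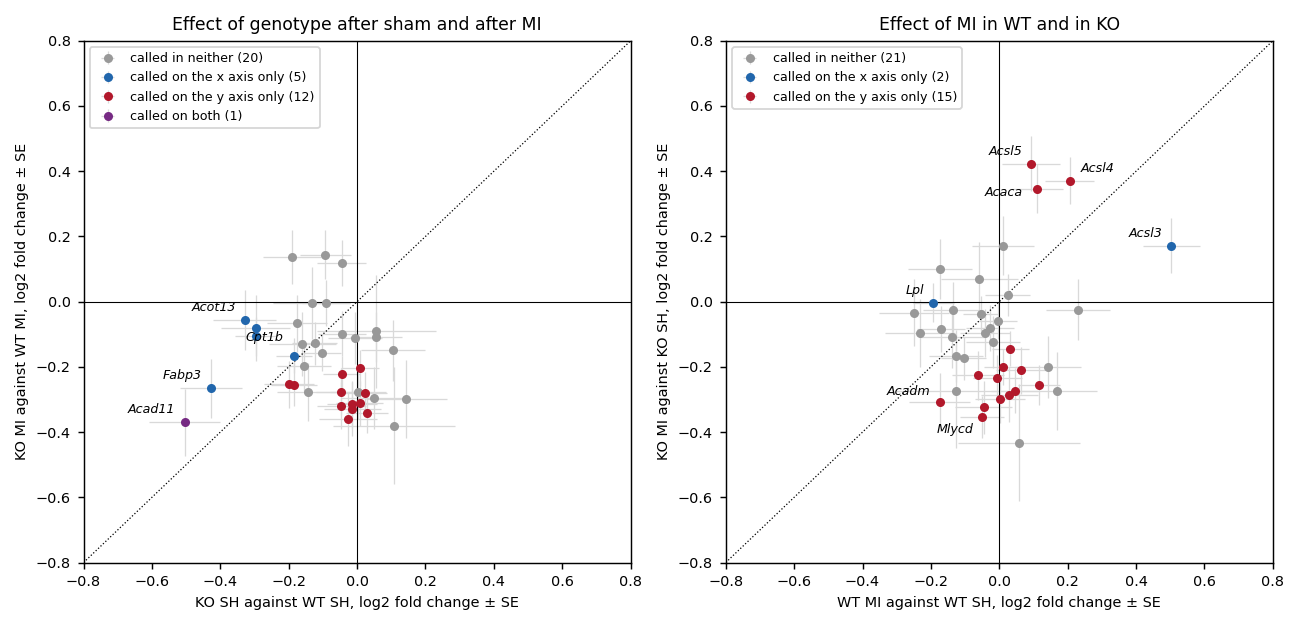
Fitted log2 fold changes ± SE, for 38 genes, of genotype without injury against genotype post-MI (left) and of injury in WT against injury in KO (right); *Acsl6* is left out because it is off the scale, and the dotted line marks equal effects. *Acad11* is the 1 gene called on both axes on the left, and on the right *Acsl4*, *Acsl5* and *Acaca* are the 3 genes called higher on the y axis. In both panels the axes have no library in common.

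Other genes of lipid handling and their regulators were counted from lists drawn up with results of these data known. Of 39 tested partner genes (lipoprotein handling, other transporters and binding proteins, droplet and peroxisomal enzymes), 1 was higher (2.56%) and 2 lower (5.13%) in KO SH against WT SH, both shares below the 5.11% and 7.22% of all genes. In KO MI against WT MI 1 was higher (2.56%) and 4 lower (10.3%), beside 1.03% and 2.04% of all genes. In WT MI against WT SH 2 were higher and 1 lower (5.13% and 2.56%, beside 3.11% and 2.21%). In KO MI against KO SH 3 were higher and 2 lower (7.69% and 5.13%), below the 10.2% and 7.32% of all genes. Of 20 regulators, 0 were higher and 6 lower (30.0%) in KO SH against WT SH, beside 7.22% lower of all genes, and 0 higher and 5 lower (25.0%) in KO MI against WT MI, beside 2.04%. They were 1 and 1 in WT MI against WT SH (5% each, beside 3.11% and 2.21%), and 2 and 3 in KO MI against KO SH (10% and 15%, beside 10.2% and 7.32%). In the interaction edgeR called 0 genes of both lists. By its test 8 of 39 partners and 4 of 20 regulators had an unadjusted p under 0.05, beside 2745 of all 20159 genes.

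*Esrrb*, an orphan receptor of the estrogen-related family, had the lowest adjusted p of the regulators. *Esrrb* was at 8.73, 8.501, 8.15 and 7.11 CPM in WT SH, at 2.998, 3.700, 3.004 and 3.04 in KO SH, at 10.3, 10.2, 9.67 and 9.54 in WT MI and at 5.04, 8.03, 5.17 and 4.68 in KO MI. KO SH lay below all WT libraries, and KO MI lay below all WT MI libraries, with KO MI 2 the highest of the KO libraries. Its log2 fold change was -1.35 ± 0.14 in KO SH against WT SH (adjusted p = 1.53e-05), -0.79 ± 0.13 in KO MI against WT MI (adjusted p = 0.00354) and 0.85 ± 0.14 in KO MI against KO SH (adjusted p = 0.00179). In WT SH the CPM of *Ppara* was 16.6, 15.1, 16.4 and 15.6, in KO SH 9.63, 11.02, 11.3 and 10.5, in WT MI 12.9, 11.8, 12.3 and 12.6 and in KO MI 12.1, 8.39, 12.03 and 12.9. *Ppara*, the nuclear receptor that drives transcription of oxidation genes, was lower in KO SH against WT SH by 0.59 on the log2 scale (adjusted p = 0.00216) and in WT MI against WT SH by 0.36 (adjusted p = 0.0568, lost without WT SH 1 or 3 or WT MI 2, 3 or 4). These 2 calls share the WT SH libraries. *Ppara* in KO MI against WT MI was at a log2 fold change of -0.13 ± 0.10 (adjusted p = 0.696, not called). The libraries of WT SH had 42.8, 46.5, 45.8 and 43.1 CPM of *Nrip1*, those of KO SH 46.7, 45.9, 47.03 and 43.6, those of WT MI 45.2, 46.9, 47.4 and 45.3 and those of KO MI 40.6, 37.8, 40.1 and 40.2. *Nrip1*, a corepressor of these receptors, was lowest in the 4 KO MI libraries, at a log2 fold change of -0.22 ± 0.05 against WT MI (adjusted p = 0.0208) and -0.21 ± 0.05 against KO SH (adjusted p = 0.0101).

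*Dbi*, the acyl-CoA binding protein, moved with both genotype and injury. For *Dbi* the CPM values were 29.99, 29.97, 31.3 and 25.9 in WT SH, 20.6, 22.5, 21.3 and 21.7 in KO SH, 49.6, 40.6, 35.6 and 40.1 in WT MI and 29.8, 34.3, 32.1 and 25.8 in KO MI. KO SH was the lowest group and WT MI the highest. *Dbi* had a log2 fold change of -0.45 ± 0.10 in KO SH against WT SH (adjusted p = 0.00945), -0.44 ± 0.09 in KO MI against WT MI (adjusted p = 0.0198), 0.50 ± 0.09 in WT MI against WT SH (adjusted p = 0.0088) and 0.50 ± 0.10 in KO MI against KO SH (adjusted p = 0.00355). CPM of *Dgat2* stood at 15.1, 29.2, 18.5 and 19.3 in WT SH, 12.2, 11.3, 11.9 and 12.1 in KO SH, 19.5, 19.2, 20.6 and 18.8 in WT MI and 10.8, 6.22, 8.23 and 12.5 in KO MI. *Dgat2*, which completes triglyceride synthesis, was below every WT library in all 8 KO libraries, at a log2 fold change of -0.79 ± 0.18 without injury (adjusted p = 0.0145) and -1.06 ± 0.18 post-MI (adjusted p = 0.0041). *Hif1a*, the hypoxia-inducible factor, was 279 to 293 CPM in WT SH, 239 to 242 CPM in KO SH, 279.6 to 369 CPM in WT MI and 277 to 360.3 CPM in KO MI. It had a log2 fold change of -0.24 ± 0.08 in KO SH against WT SH (adjusted p = 0.0811), lost in all 8 omissions, and 0.37 ± 0.08 in KO MI against KO SH (adjusted p = 0.00901).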

How the data were processed

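Expression was measured by RNA-seq of ventricles in 16 libraries, grouped by the genotype and surgery of their labels, 4 per group. The authors' methods describe adapter trimming with Skewer, alignment of strand-specific 150-base read pairs to GRCm39 with STAR, quantification with RSEM and testing with DESeq2. The submitters' processing notes also name cutadapt 3.4 and HISAT2 2.2.1. The authors deposited RSEM expected counts per gene, not normalized and already whole numbers. The annotation release is not given in the sources used here. Identifiers were given symbols and positions from GENCODE release M39, which matched 47772 of 51912. RSEM divides reads among near-identical genes, so paralogs are uncertain. The authors' labels do not say whether libraries of a group shared a litter. The F-tests judge each fold against the spread of libraries within groups, estimated over all 16 libraries and not only over the groups compared.

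Counts were analysed in R 4.3.3 with edgeR 4.0.16. Genes whose counts added up to 10 or more in every group entered a quasi-likelihood fit with TMM normalization and 1 coefficient per group over all 16 libraries, and two-sided F-tests were adjusted over 20159 genes by the method of Benjamini and Hochberg. An adjusted p under 0.1 was a call, and a log2 fold change of at least 0.5 as well made a DEG. Exact permutation tests used log2(CPM + 0.05). The fit was checked on simulated counts. Depth set a floor of 3 counts, 0.0577 to 0.0858 CPM.

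The 39 genes and the other lists were chosen with earlier results of these data known. Values per library are given for genes called in at least 1 comparison, up to 5 per step by the lowest adjusted p, and for *Cpt1a*, *Cpt1b*, *Fabp3* and *Fabp4*. Up to 6 partners and regulators with the lowest adjusted p are named. Alternatives were DESeq2 1.42.0, its size factors in edgeR, mitochondrially encoded genes left out, no filter, edgeR's filterByExpr, a robust fit, only the groups compared, the replicate number as a block, a term for *Xist*, an adjusted p under 0.05 and each library left out. The omission of KO MI 2 and KO MI 7 and the restriction to libraries with low *Xist* were added after seeing the data. Expression in the study's other data types was not analysed here.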

Additional observations from a re-analysis of the deposited data

Results flagged for a closer look

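In 6 of the 156 sets of 4 libraries (39 genes in 4 groups), 1 library lay far from the other 3 by Dixon's criterion. About 7.8 such sets are given by chance at this criterion. *Fabp4* was at 84.4 CPM in KO MI 1, against 69.5 to 71.9 CPM in the other KO MI libraries. *Crat* was at 111 CPM in KO SH 2, against 105 to 106 CPM in the other KO SH libraries. For *Mlycd*, WT MI 2 had 22.8 CPM and the others of its group 25.0 to 25.4 CPM. For *Decr1*, WT MI 4 had 144 CPM and the others 119 to 122.7 CPM, and the fold in KO MI against WT MI ran from -0.38 to -0.27 over the omissions of 1 library. *Etfa* was lowest in KO SH 4, at 80.2 CPM beside 85.7 to 86.5 CPM. *Lipe* was highest in WT SH 3, at 11.8 CPM beside 10.4 to 10.6 CPM.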

How the results depend on the processing

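No called fold changed sign under any alternative that was run. Among the 39 genes, 37 calls were made over the 4 pairwise comparisons, of which 16 were kept in every omission of 1 library and 21 were lost in at least 1. The same tally was not made over all genes, so whether these genes lost calls more often than others is not known. The counts of called genes moved as follows, and the cause was not tested. In KO SH against WT SH the count of 7 (beside 12.3% of all genes called) became 11 in a fit on the groups compared, beside 18%. The count was 2 among libraries with *Xist* under 100 CPM, beside 3.82%. The 2 DEGs, beside 5.01% of all genes, became 1 there, beside 2.3%. Between KO MI and WT MI the 13 became 1 on the groups compared, 7 at an adjusted p under 0.05 and 0 among low *Xist* libraries, where 2 libraries stood against 2. Of all genes, 3.07% were called in the main fit and 1.23%, 1.86% and 0.846% in these. In WT MI against WT SH the 2 became 1 with no filter, with a robust fit, at an adjusted p under 0.05 and among low *Xist* libraries. The shares of all genes called were 5.31% in the main fit and 3.21%, 5.37%, 3.03% and 1.46% in these. Between KO MI and KO SH the 15 (beside 17.5% of all genes called) became 5 among low *Xist* libraries (beside 4.06%). In the interaction the 0 became 3 with DESeq2 and 8 without KO MI 2 and KO MI 7, and the 0 DEGs became 3 without those 2 libraries. Of all genes, 0.0248% were called in the main fit, 4.49% with DESeq2 and 4.11% without the 2 libraries, where 1.89% were DEGs. Without them KO MI against WT MI and KO MI against KO SH had 1 DEG each in place of 0, beside 1.5% and 6.59% of all genes.

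Leaving out 1 library at a time, the called genes ran from 4 to 9 in KO SH against WT SH, 2 to 18 in KO MI against WT MI, 1 to 2 in WT MI against WT SH, 10 to 18 in KO MI against KO SH and 0 to 10 in the interaction. Of all genes, 7.08% to 14.3%, 1.74% to 6.16% and 2.31% to 6.5% were called in the first 3 of these. In the last 2, 9.55% to 28% and 0.01% to 9.08% were called. DEGs ran from 0 to 3, 0 to 1, 0 to 1, 0 to 1 and 0 to 2. Shares of DEGs among all genes were 3.35% to 6.15%, 1.14% to 2.88%, 1.42% to 3.19%, 4.43% to 10.9% and 0.01% to 4.2%. In WT MI against WT SH 1 call was left without WT SH 1, 2 or 3 or WT MI 1, 2 or 3, and the DEG was lost without WT SH 4, WT MI 1 or WT MI 4. The DEG of each KO MI comparison and the 10 calls of the interaction came without KO MI 7. The median log2 fold change of the interaction ran from -0.13 without KO MI 1 to -0.044 without WT SH 4.

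With the replicate block, called genes numbered 10, 18, 4, 19 and 8 in the same order of comparisons, and DEGs 2, 1, 1, 1 and 2, beside 17%, 5.50%, 8.21%, 25.2% and 7.36% of all genes called. DEGs were 5.68%, 2.56%, 3.31%, 9.96% and 3.42% of all genes. Same-numbered libraries of different groups did not deviate together (21 pairs, correlation -0.062 to 0.112, median 0.0083), so the numbers were not taken to pair libraries. KO MI 7 is the only library with its number, and the block removes it from the comparisons. DESeq2's size factors and the omission of mitochondrially encoded genes moved the median of all genes by at most 0.0057 on the log2 scale. For the interaction, a fit on fewer groups was not run because all 16 libraries are needed.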
